A study of Mus musculus with 48 samples.

Results

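The transcription factors that hold mouse embryonic stem cells in the naive pluripotent state were followed here as a set of 10 genes of the 20171 in the count table: Pou5f1, Sox2, Nanog, Klf2, Klf4, Klf5, Esrrb, Tfcp2l1, Zfp42 and Tbx3. They were taken from the table by gene symbol, and all 10 were found. All 10 also passed the filter on low counts in each of the 11 comparisons, with at least 1790 reads for the member and library with the fewest (Klf5 in a precipitate).

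The study precipitated HA-tagged Tnrc6a from embryonic stem cell lysates with anti-HA magnetic beads and sequenced total RNA of the lysate (input) and of the precipitate (IP). Tnrc6a is a GW182-family protein that Argonaute proteins recruit to the mRNAs that microRNAs target, and Upf1 is the central helicase of nonsense-mediated mRNA decay. The 48 libraries form 8 groups of 6, an input and an IP group for each of 4 genotypes. In each group 3 libraries belong to 1 of 2 experiments, and column numbers 1 to 3 and 4 to 6 were taken as those experiments. All cells are of a 129S6/SvEvTac line, were grown on gelatin with serum and LIF, and carry the yGlob GFP_5xT71BS reporter; per the growth protocol the line also holds a stable FLAG-Cas9::T2A::Blasticidin insertion. The untagged control has no HA tag, the HA-Tnrc6a cells carry HA-AVI-Tnrc6a, and the Ago2KO and Upf1KO cells carry the same tagged Tnrc6a together with Ago2-/- or Upf1-/-. Each knockout is therefore compared with HA-Tnrc6a, and the tagged genotypes with the untagged cells. How many clones stand behind a genotype is not stated in the labels.

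As background, Pou5f1 (Oct4), Sox2 and Nanog form the core of the pluripotency network and bind many of the same enhancers, Pou5f1 and Sox2 as a pair on a composite element. The Krüppel-like factors Klf2, Klf4 and Klf5 act in part redundantly in self-renewal, and Klf4 is a target of LIF and Stat3 signalling. Tfcp2l1 also lies downstream of LIF and Stat3, Esrrb is an orphan nuclear receptor repressed by Tcf7l1, Tbx3 is a T-box factor that supports self-renewal, and Zfp42 (Rex1) is a zinc finger protein whose level is widely used as a marker of the naive state.

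The upstream sequences of 4 members that were lower in the cells labelled Upf1 knockout are shown first. These 4 were picked because they share that change and because their windows hold the motifs of other members. Finding both together therefore follows from the choice, and whether the motifs bear on the levels was not tested. Each sequence is the 250 bases before an annotated start, read 5′ to 3′ on the gene's strand. It is taken from RefSeq on GRCm38.p6, the build of all positions given here. The windows are chr8:72318812-72319061 (+) for Klf2, chr8:43307010-43307259 (-) for Zfp42, chr17:35505782-35506031 (+) for the first start of Pou5f1 and chr6:122707239-122707488 (+) for the first start of Nanog. Capitals mark a match, on either strand, to 1 of 5 motifs: the octamer ATGCAAAT bound by Pou5f1, the Sox core CATTGT, a composite in which that core is followed after 1 base by ATGCAAA, the Klf core CCACCC, and the Esrrb motif TCAAGGTCA.
Klf2: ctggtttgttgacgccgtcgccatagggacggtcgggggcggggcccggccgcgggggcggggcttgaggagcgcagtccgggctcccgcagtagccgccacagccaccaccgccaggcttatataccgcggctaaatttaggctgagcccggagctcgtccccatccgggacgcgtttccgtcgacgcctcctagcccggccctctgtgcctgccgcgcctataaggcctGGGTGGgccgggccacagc
Zfp42: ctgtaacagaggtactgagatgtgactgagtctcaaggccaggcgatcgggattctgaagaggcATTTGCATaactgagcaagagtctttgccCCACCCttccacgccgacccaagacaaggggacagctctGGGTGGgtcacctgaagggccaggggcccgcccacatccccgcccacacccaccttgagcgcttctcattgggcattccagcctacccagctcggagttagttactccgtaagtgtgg
Pou5f1: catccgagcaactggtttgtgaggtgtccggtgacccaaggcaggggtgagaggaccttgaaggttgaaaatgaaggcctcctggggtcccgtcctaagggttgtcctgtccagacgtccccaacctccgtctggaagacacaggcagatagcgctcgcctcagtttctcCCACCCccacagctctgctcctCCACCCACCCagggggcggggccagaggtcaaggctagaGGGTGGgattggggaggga
Nanog: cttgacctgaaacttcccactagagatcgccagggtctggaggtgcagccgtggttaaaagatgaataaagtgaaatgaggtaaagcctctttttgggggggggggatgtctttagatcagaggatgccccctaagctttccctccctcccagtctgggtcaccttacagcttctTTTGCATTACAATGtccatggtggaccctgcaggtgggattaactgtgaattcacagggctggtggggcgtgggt
The Klf core occurred in 28.1% of 32851 promoter windows of this length and in windows of Pou5f1, Nanog, Klf2, Esrrb and Zfp42. The Sox core occurred in 10.7% of windows and, among the members, in those of Nanog and of the second Pou5f1 start. The octamer occurred in 1.6% of windows and, among the members, in that of Zfp42. The composite, whose matches overlap those of the Sox core and which was added to the motifs after the windows had been seen, occurred in 2 windows of 32851, both of Nanog (0.00609%). These 2 windows overlap and share the same site. The Esrrb motif occurred in 0.387% of windows and in none of the 11 windows found for 8 of the members. Sox2, the fifth member that was lower in those cells, held none of the motifs in its window, which says only that these letters are not there. Klf5 and Tbx3 had no window in the table.

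Library totals ran from 15383953 to 19595405 counts in inputs 1 to 3, from 26458831 to 37179105 in inputs 4 to 6, from 11471544 to 18344233 in IPs 1 to 3 and from 25724085 to 73845953 in IPs 4 to 6. Levels are given as normalised CPM, counts relative to the library's total after scaling by edgeR's TMM factors over all libraries. Tnrc6a ran from 8841 to 34244 CPM in IPs of HA-Tnrc6a and from 56.6 to 105 CPM in those of untagged cells. It ran from 11211 to 58807 CPM in Ago2KO IPs and from 7686 to 23625 CPM in Upf1KO IPs. In inputs Tnrc6a was at 66.6 to 91.5 CPM in HA-Tnrc6a and, without overlap, at 97.3 to 130 CPM in Ago2KO. It was at 68.2 to 87.3 CPM in Upf1KO inputs and at 71.5 to 101 CPM in untagged inputs. Whether these levels bear on the recovery below was not tested. Ago2 was at 92.8 to 136 CPM in Ago2KO inputs and at 205 to 323 CPM in HA-Tnrc6a inputs. Upf1 was not lower in the Upf1KO inputs, at 122 to 142 CPM against 74.4 to 99.6 CPM in HA-Tnrc6a, so its mRNA does not check that label, and these cells are called the cells labelled Upf1 knockout.

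The inputs carried the markers of embryonic stem cells at high level in every genotype. The summed level of 8 such markers, 5 of which are members, was 6315 to 7992 CPM in untagged cells and 6823 to 7434 CPM in HA-Tnrc6a. It was 6238 to 7041 CPM in the cells labelled Upf1 knockout and 7173 to 8102 CPM in Ago2KO. Both of these ranges overlapped those of untagged cells and of HA-Tnrc6a. Of 6 primitive endoderm markers, all in the table, the sum was 12.7 to 41.3 CPM in untagged cells, 35.3 to 39.1 CPM in HA-Tnrc6a, 7.45 to 9.41 CPM in Ago2KO and 12.7 to 60.2 CPM in the cells labelled Upf1 knockout, with Foxa2 at 0 in at least 1 input; all 6 were lower in Ago2KO than in HA-Tnrc6a inputs. The 5 neural markers summed to 86.0 to 93.9 CPM in HA-Tnrc6a, 116 to 126 CPM in Ago2KO and 53.9 to 69.8 CPM in the cells labelled Upf1 knockout, mostly from Tubb3, and all 5 were higher in Ago2KO than in HA-Tnrc6a. The 5 mesoderm markers summed to at most 18.1 CPM in any input. The 3 trophoblast markers in the table summed to at most 3.62 CPM (Cdx2 and Elf5 are not in the table; Gata3 reached 0). The 4 fibroblast markers in the table summed to 36.1 to 42.2 CPM in untagged cells, 35.9 to 48.1 CPM in HA-Tnrc6a, 27.3 to 37.6 CPM in Ago2KO and 46.5 to 57.4 CPM in the cells labelled Upf1 knockout, of which Thy1 had 18.6 to 33.5 CPM, with Col1a2 reaching 0 and Col3a1 and Twist2 not in the table. All 4 were lower in Ago2KO than in HA-Tnrc6a inputs. Beside these marker counts, called at an edgeR adjusted p below 0.05, 15.7% of all genes were higher and 15.2% lower in Ago2KO. The part of these marker genes in the changes below was not tested. In lysates of whole dishes, fewer cells of a type and less RNA per cell cannot be told apart.

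Per kilobase of gene length, Pou5f1 had the highest input level of the 10 at 658 ± 82.1 CPM per kb (mean ± SD over 24 inputs), followed by Zfp42 at 392 ± 56.1, Nanog at 296 ± 43.5 and Sox2 at 292 ± 51.8 CPM per kb. Over all genotypes together, Klf4 at 152 ± 22.4, Klf2 at 148 ± 59.9 and Esrrb at 128 ± 11.5 CPM per kb followed, and Tfcp2l1 at 73.9 ± 14.7, Klf5 at 60.6 ± 12.1 and Tbx3 at 59.7 ± 14.3 CPM per kb were lowest. Neighbours within each of the pairs Nanog and Sox2, Klf4 and Klf2, Klf2 and Esrrb, Tfcp2l1 and Klf5, and Klf5 and Tbx3 differed by less than the larger of their SDs. The place of Klf2 moved with the genotype: its median input level of 226 CPM per kb in Ago2KO lay above those of Esrrb (138) and Klf4 (128), and its 70.2 CPM per kb in the cells labelled Upf1 knockout lay below those of Klf4 (164), Esrrb (136) and Tfcp2l1 (78.2). In the untagged IPs Pou5f1 was first, with a median of 629 CPM per kb, and Klf2 the fourth at 214 CPM per kb. Klf2 was first in the IPs of each tagged genotype, with medians of 1506 CPM per kb in HA-Tnrc6a, 2468 in Ago2KO and 962 in the cells labelled Upf1 knockout. Over all 10 members the summed input level was 6246 to 6684 CPM in HA-Tnrc6a, 6647 to 7277 CPM in Ago2KO and 5384 to 6302 CPM in the cells labelled Upf1 knockout.

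In the lysates, the naive factors did not move as a block: in the cells labelled Upf1 knockout Klf2 fell 2.28-fold while Klf4 was slightly higher, and in Ago2KO Klf2 was higher while Klf4 and Klf5 were lower. Against HA-Tnrc6a inputs, 4 members were higher and 5 lower in the cells labelled Upf1 knockout, and 7 were higher and 2 lower in Ago2KO, at an adjusted p below 0.05 from edgeR's quasi-likelihood test with Benjamini-Hochberg adjustment over all genes tested. The background was broad: 29.5% of all genes were higher and 29.0% lower in the cells labelled Upf1 knockout, and 15.7% were higher and 15.2% lower in Ago2KO. In libraries 1 to 3 alone, the cells labelled Upf1 knockout had 1 member higher and 6 lower (4427 and 4144 of 18013 genes). Libraries 4 to 6 alone gave 5 and 5 (5106 and 4718 of 19229 genes). All 48 libraries in 1 fit gave 3 and 5 (4882 and 4898 of 20170 genes). For Ago2KO, libraries 1 to 3 alone and the fit of all 48 each gave 5 members higher and 2 lower. The median log2 fold change of the members was -0.10 in the cells labelled Upf1 knockout against -0.02 over all genes, and 0.13 in Ago2KO against -0.01 over all genes. Both comparisons use the same HA-Tnrc6a inputs.

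**Figure D1:**
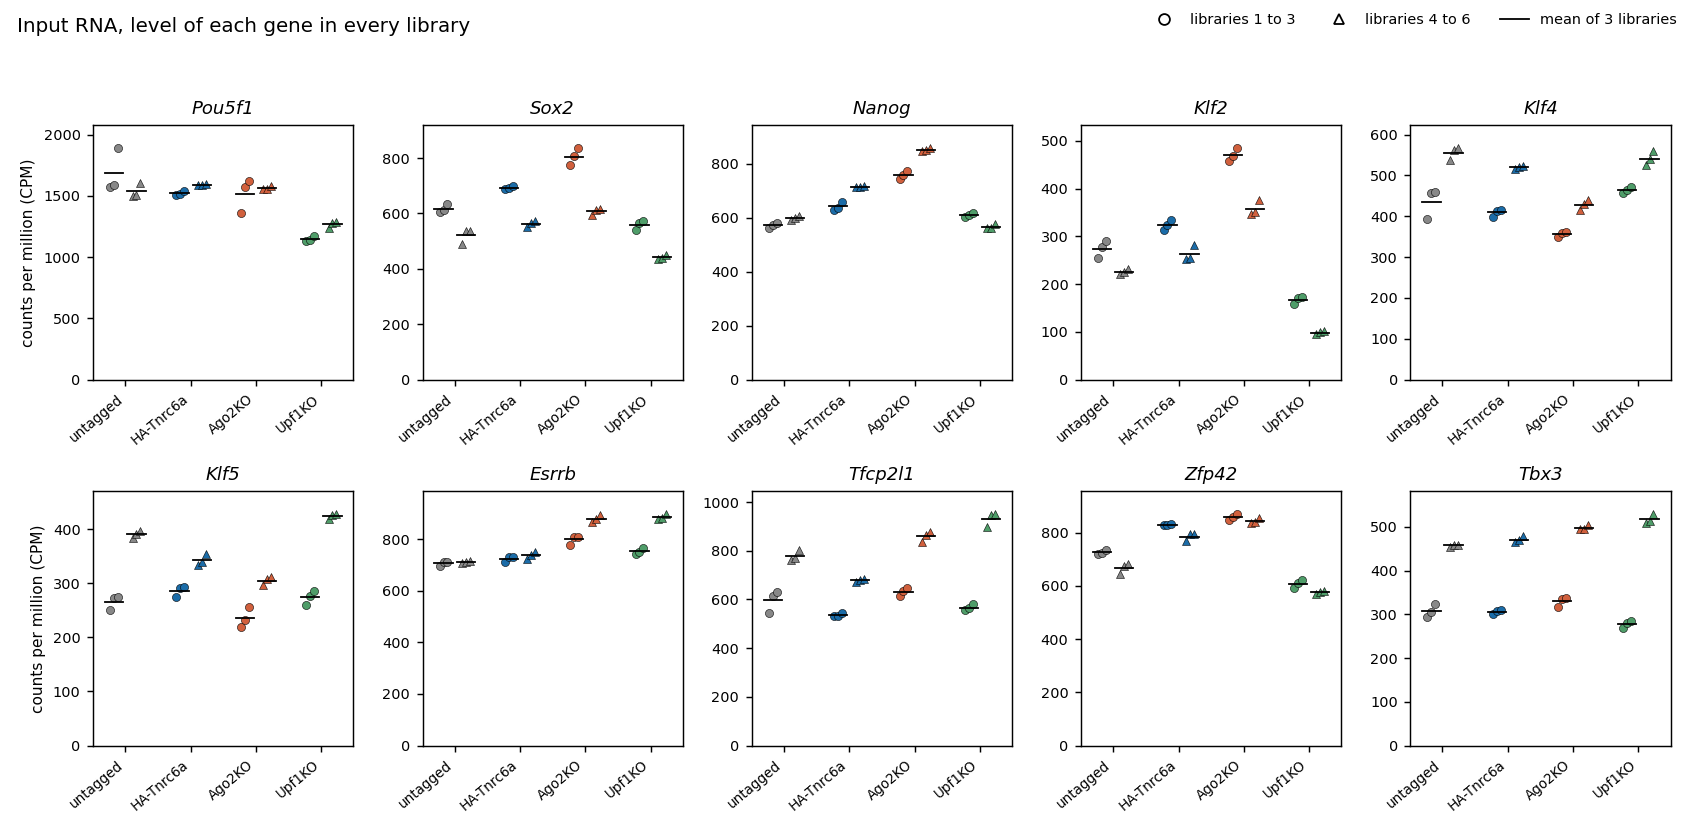
Input level of each member in CPM (vertical axis, from 0) in every library of the 4 genotypes (horizontal axis); circles are libraries 1 to 3, triangles libraries 4 to 6, and bars the mean of 3 libraries. Klf2 lies between 94.8 and 172 CPM in all 6 inputs of the cells labelled Upf1 knockout and between 347 and 484 CPM in all 6 Ago2KO inputs.

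Pou5f1 (chr17:35506032-35510777, + strand), the POU factor of the core, ran from 1508 over a median of 1562 to 1596 CPM in HA-Tnrc6a inputs, from 1362 over 1564 to 1622 CPM in Ago2KO inputs and from 1131 over 1205 to 1286 CPM in inputs of the cells labelled Upf1 knockout. All 6 inputs of the latter lay below all 6 of HA-Tnrc6a, while Ago2KO overlapped HA-Tnrc6a in libraries 1 to 3 and lay just below it in libraries 4 to 6. Its log2 fold change was -0.37 ± 0.02 (SE, n = 6 libraries a group; edgeR adjusted p = 6.3e-21) in the cells labelled Upf1 knockout. In Ago2KO the log2 fold change of Pou5f1 was -0.01 ± 0.03, with a 95% interval of -0.07 to 0.04 (edgeR adjusted p = 0.74).

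Sox2 (chr3:34649995-34652461, + strand), the partner of Pou5f1, ran from 552 over 630 to 701 CPM in HA-Tnrc6a inputs, from 595 over 694 to 835 CPM in Ago2KO and from 436 over 496 to 571 CPM in the cells labelled Upf1 knockout. Libraries 1 to 3 were higher than libraries 4 to 6 in every genotype; within each set the Ago2KO inputs lay above and those of the cells labelled Upf1 knockout below HA-Tnrc6a, without overlap. Sox2 fell by 0.33 ± 0.02 on the log2 scale in the cells labelled Upf1 knockout (edgeR adjusted p = 2.5e-17) and rose by 0.16 ± 0.02 in Ago2KO (edgeR adjusted p = 1.1e-06). The noncoding gene Sox2ot overlaps Sox2, and its strand was not read here. How reads shared by the pair were counted is not given in the sources used here, so they may not have been told apart.

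Nanog (chr6:122707489-122714633, + strand), a homeodomain factor, ran from 630 over 686 to 719 CPM in HA-Tnrc6a inputs, from 743 over 810 to 857 CPM in Ago2KO and from 563 over 589 to 618 CPM in the cells labelled Upf1 knockout. The 3 genotypes did not overlap. Nanog rose by 0.24 ± 0.02 in Ago2KO on the log2 scale (edgeR adjusted p = 1.5e-11). In the cells labelled Upf1 knockout it fell by 0.20 ± 0.02 (edgeR adjusted p = 3.6e-11), by 0.08 in libraries 1 to 3 and by 0.32 in libraries 4 to 6, and that difference between the library sets had an edgeR adjusted p of 8.2e-05. Of all genes, 11.6% differed between the library sets in that comparison, as did 6 of the 10 members. Nanog has processed pseudogenes in the mouse genome, and how reads shared with them were counted is not given in the sources used here.

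Klf2 (chr8:72319062-72321654, + strand) was the member whose lysate level differed most between the genotypes. In HA-Tnrc6a inputs it was at 324, 335 and 314 CPM in libraries 1 to 3 and at 282, 252 and 255 CPM in libraries 4 to 6. In inputs of the cells labelled Upf1 knockout it was at 158, 172 and 170 CPM and then at 101, 94.8 and 99.0 CPM. In Ago2KO inputs it was at 457, 484 and 469 CPM and then at 351, 347 and 376 CPM. The 3 genotypes did not overlap in either set, and every Ago2KO input lay above every HA-Tnrc6a input. Klf2 fell by 1.19 ± 0.03 on the log2 scale in the cells labelled Upf1 knockout (2.28-fold lower; edgeR adjusted p = 7.2e-31), and 2.2% of all genes had a log2 fold change as low or lower. The fall was 0.97 in libraries 1 to 3 and 1.40 in libraries 4 to 6, a difference with an edgeR adjusted p of 3.6e-07. In Ago2KO Klf2 rose by 0.49 ± 0.03 (1.40-fold; edgeR adjusted p = 2.8e-18), and in Ago2KO against the cells labelled Upf1 knockout by 1.68 ± 0.03 (3.20-fold; edgeR adjusted p = 6.1e-45).

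Klf4 (chr4:55527137-55532475, - strand) ran from 399 over 466 to 523 CPM in HA-Tnrc6a inputs, from 348 over 389 to 439 CPM in Ago2KO and from 458 over 499 to 559 CPM in the cells labelled Upf1 knockout. Within each library set the Ago2KO inputs lay below and those of the cells labelled Upf1 knockout above HA-Tnrc6a, the reverse of Klf2. Klf4 fell by 0.24 ± 0.02 on the log2 scale in Ago2KO (edgeR adjusted p = 4.7e-11). It rose by 0.12 ± 0.02 in the cells labelled Upf1 knockout (edgeR adjusted p = 6.9e-06), a call that was lost with all 48 libraries in 1 fit (edgeR adjusted p = 0.054).

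Klf5 (chr14:99298691-99313412) ran from 274 over 313 to 354 CPM in HA-Tnrc6a inputs, from 220 over 276 to 311 CPM in Ago2KO and from 259 over 352 to 427 CPM in the cells labelled Upf1 knockout. Ago2KO lay below HA-Tnrc6a in both sets, and the log2 fold change was -0.22 ± 0.03 (edgeR adjusted p = 3.7e-08). For the cells labelled Upf1 knockout the sets differed: the log2 fold change was -0.07 in libraries 1 to 3, where the groups overlapped, and 0.33 in libraries 4 to 6, where they did not. Over both sets it was 0.13 ± 0.02 (edgeR adjusted p = 1.4e-05), and the difference between sets had an edgeR adjusted p of 4.6e-08.

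Esrrb (chr12:86361117-86521628, + strand), the nuclear receptor, ran from 711 over 731 to 751 CPM in HA-Tnrc6a inputs, from 778 over 837 to 891 CPM in Ago2KO and from 743 over 820.5 to 896 CPM in the cells labelled Upf1 knockout. Both knockouts lay above HA-Tnrc6a in both sets. Esrrb rose by 0.20 ± 0.02 on the log2 scale in Ago2KO (edgeR adjusted p = 7.1e-09) and by 0.16 ± 0.02 in the cells labelled Upf1 knockout (edgeR adjusted p = 7.5e-09). In the latter the rise was 0.05 in libraries 1 to 3 and 0.28 in libraries 4 to 6 (difference between sets, edgeR adjusted p = 1.1e-04). The predicted gene Gm40483 overlaps Esrrb on the other strand.

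Tfcp2l1 (chr1:118627923-118685168, + strand), a grainyhead-family factor, ran from 531 over 609 to 686 CPM in HA-Tnrc6a inputs, from 613 over 742 to 877 CPM in Ago2KO and from 555 over 738 to 950 CPM in the cells labelled Upf1 knockout. Within each set both knockouts lay above HA-Tnrc6a. The log2 fold change was 0.29 ± 0.02 in Ago2KO (edgeR adjusted p = 3.3e-13) and 0.27 ± 0.02 in the cells labelled Upf1 knockout (edgeR adjusted p = 1.2e-14). The latter was 0.07 in libraries 1 to 3, without a call in that set alone (edgeR adjusted p = 0.084), and 0.47 in libraries 4 to 6, a difference with an edgeR adjusted p of 3.3e-09. The locus LOC115487679 overlaps Tfcp2l1.

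Tbx3 (chr5:119670534-119684724) ran from 299.8 over 387 to 478 CPM in HA-Tnrc6a inputs, from 318 over 416 to 504 CPM in Ago2KO and from 269 over 397 to 529 CPM in the cells labelled Upf1 knockout. Its log2 fold change was 0.10 ± 0.02 in Ago2KO (edgeR adjusted p = 0.0018), a call lost with all 48 libraries in 1 fit (edgeR adjusted p = 0.16). In the cells labelled Upf1 knockout it was 0.00 ± 0.02 over both sets (95% interval -0.04 to 0.05; edgeR adjusted p = 0.90), from -0.14 in libraries 1 to 3 and 0.15 in libraries 4 to 6, which lay on opposite sides of HA-Tnrc6a without overlap (difference, edgeR adjusted p = 5.4e-06). The antisense gene Tbx3os1 overlaps Tbx3.

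Zfp42 (chr8:43295067-43307009, - strand), the naive-state marker, ran from 767 over 812 to 834 CPM in HA-Tnrc6a inputs, from 838 over 850 to 869 CPM in Ago2KO and from 569 over 586 to 621 CPM in the cells labelled Upf1 knockout. All inputs of the latter lay below all of HA-Tnrc6a, and all of Ago2KO above. Zfp42 fell by 0.45 ± 0.02 on the log2 scale in the cells labelled Upf1 knockout (1.36-fold lower; edgeR adjusted p = 9.6e-23), by 0.46 and 0.43 in the 2 library sets. In Ago2KO the log2 fold change was 0.07 ± 0.02 (edgeR adjusted p = 0.011), and the call was lost with all 48 libraries in 1 fit (edgeR adjusted p = 0.18). Zfp42 has a pseudogene, Zfp42-ps1, and how shared reads were counted is not given in the sources used here.

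**Figure D2:**
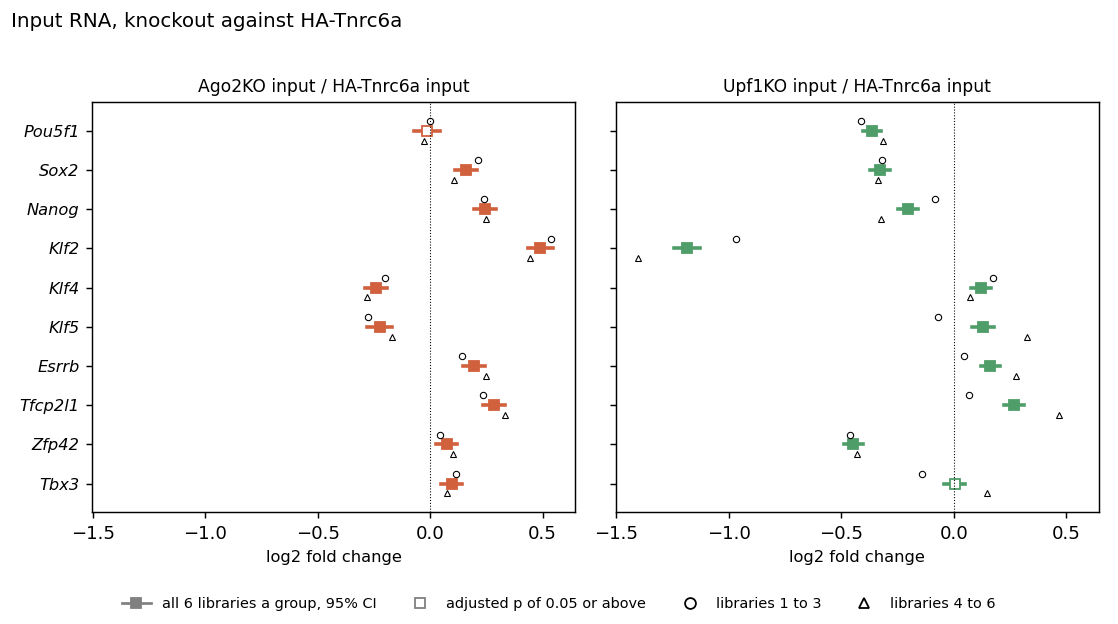
Log2 fold change of each member's input level against HA-Tnrc6a (horizontal axis), Ago2KO on the left and the cells labelled Upf1 knockout on the right; squares with lines are all 6 libraries a group with the 95% interval (filled where the adjusted p is below 0.05), circles libraries 1 to 3 and triangles libraries 4 to 6. Klf2 stands at -1.19 on the right and 0.49 on the left, and the circles and triangles of Klf5 and Tbx3 lie on either side of 0 on the right.

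Compared directly, Ago2KO inputs were higher than those of the cells labelled Upf1 knockout for 6 members and lower for 2, with 31.4% of all genes higher and 30.9% lower. Beside Klf2, the higher members were Zfp42 (log2 fold change 0.52 ± 0.02), Sox2 (0.49 ± 0.02), Nanog (0.45 ± 0.02), Pou5f1 (0.35 ± 0.03) and Tbx3 (0.10 ± 0.03), and the lower ones were Klf4 (-0.36 ± 0.02) and Klf5 (-0.35 ± 0.03). The call of Tbx3 was lost with library totals as the scale (edgeR adjusted p = 0.17) and with all 48 libraries in 1 fit (edgeR adjusted p = 0.087). Between library sets, 6 members differed, against 13.1% of all genes. Tbx3 and Tfcp2l1 lay above the cells labelled Upf1 knockout in libraries 1 to 3 and below them in libraries 4 to 6.

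Untagged and HA-Tnrc6a cells showed small differences in the lysate. The tag and any other difference between these cells cannot be told apart. In untagged against HA-Tnrc6a inputs, 1 member was higher and 4 were lower, with 7.67% of all genes higher and 7.74% lower. The lower ones were Klf2 (log2 fold change -0.23 ± 0.04, edgeR adjusted p = 2.8e-05), Nanog (-0.21 ± 0.03, 6.3e-06), Zfp42 (-0.21 ± 0.03, 6.8e-06) and Sox2 (-0.14 ± 0.03, 0.0022), and Tfcp2l1 was higher (0.17 ± 0.03, 6.1e-04). Klf5 differed between the library sets, with -0.11 and then 0.19, as did 3.40% of all genes. Pou5f1 in untagged inputs ran from 1496 over 1583 to 1888 CPM, and its log2 fold change was 0.05 ± 0.04 (edgeR adjusted p = 0.44). Without untagged input library 1, Klf4 passed the threshold at 0.13 (edgeR adjusted p = 2.0e-05) and Klf5 at 0.06 (edgeR adjusted p = 0.042).

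Across the 24 inputs, after the mean of each library set was subtracted, the members' log2 CPM varied in part together and in part in opposite ways. Sox2, Klf2, Zfp42 and Nanog varied together, with Pearson's r from 0.81 to 0.95 in their 6 pairs, and Klf4 and Klf5 varied together with r = 0.75. Klf4 against those same 4 genes had r from -0.86 to -0.75. Esrrb and Tfcp2l1 had r = 0.74, and against Klf2 their r was -0.10 and -0.22. These values rest on 4 genotypes of 6 libraries each and on shared library totals, so they describe the genotype differences above once more. Among 10680 genes with a mean log2 CPM of at least 3, the gene most like each member over the same 24 inputs was Rpl18 for Pou5f1 (r = 0.98), Gpc3 for Sox2 (0.97), Notum for Nanog (0.97), Sall4 for Klf2 (0.98), Ago2 for Klf4 (0.94), Bin2 for Klf5 (0.94), Gpa33 for Esrrb (0.93), Nrbp1 for Tfcp2l1 (0.82), Mycn for Zfp42 (0.97) and Calr for Tbx3 (0.82). Ago2 is itself the deleted gene in 6 of these inputs.

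Of the LIF pathway, the signal that sustains these cells in serum, 6 genes were read. Of these, 4 were higher and 1 lower in the cells labelled Upf1 knockout, where 29.5% of all genes were higher and 29.0% lower, led by the kinase gene Jak1 (log2 fold change 0.23 ± 0.04) and the receptor gene Lifr (-0.20 ± 0.04). In Ago2KO 4 were higher and 1 lower, with 15.7% of all genes higher and 15.2% lower, led by the co-receptor gene Il6st (0.55 ± 0.04) and the feedback inhibitor Socs3 (-0.38 ± 0.03). Their median log2 fold changes were 0.12 and 0.13.

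Of 18 other pluripotency-associated genes, 4 were higher and 11 lower in the cells labelled Upf1 knockout (29.5% and 29.0% of all genes), led by the zinc finger gene Sall4 (-0.46 ± 0.02) and by Rif1 (-0.37 ± 0.05), with a median log2 fold change of -0.12. In Ago2KO 8 were higher and 0 lower (15.7% and 15.2% of all genes), led by Prdm14 (0.35 ± 0.04) and by Tcf7l1, a repressor of several naive genes (0.26 ± 0.04), with a median of 0.07. Of 11 formative and primed genes tested (Fgf5 is not in the table), 1 was higher and 8 lower in the cells labelled Upf1 knockout (29.5% and 29.0% of all genes), with a median of -0.48. The leading genes were Lef1 (log2 fold change -2.44 ± 0.16, from -1.07 in libraries 1 to 3 to -3.81 in libraries 4 to 6) and Sox3 (-1.65 ± 0.18), which ran from 0.0666 to 30.3 and from 0.496 to 3.98 CPM over all inputs. In Ago2KO 4 of the 11 were higher and 4 lower (15.7% and 15.2% of all genes), with a median of -0.04, led by Zic2 (0.98 ± 0.05) and Lef1 (0.76 ± 0.10).

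Recovery in the precipitate was read in the untagged cells first, where the beads have no tag to bind. The log2 ratio of IP to input was below 0 for most members, and 7 were lower and 1 higher in IP than in input, with 17.8% of all genes lower and 18.0% higher. Klf2 was the member that was higher, at 411, 359 and 339 CPM in untagged IPs 1 to 3 and 384, 407 and 416 CPM in untagged IPs 4 to 6, against 221 to 290 CPM in untagged inputs. Its log2 fold change was 0.63 ± 0.05 (edgeR adjusted p = 6.7e-09), 0.43 in libraries 1 to 3 and 0.82 in libraries 4 to 6. The members lowest in IP were Klf5 (-0.43 ± 0.05), Esrrb (-0.37 ± 0.04) and Nanog (-0.30 ± 0.04). Klf2 and Nanog differed between the library sets, as did 2.86% of all genes. With library totals as the scale, 20.9% of all called genes were higher in place of 50.3%, and 9 members were lower and 1 higher. In libraries 1 to 3 alone 3 members passed, and Tbx3 lost its call without each of 5 libraries in turn (untagged input 1, 4, 5 or 6, or untagged IP 5; edgeR adjusted p = 0.051 to 0.067), while Tfcp2l1 gained one without untagged IP 2 or 3 (edgeR adjusted p = 0.030 to 0.037).

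**Figure D3:**
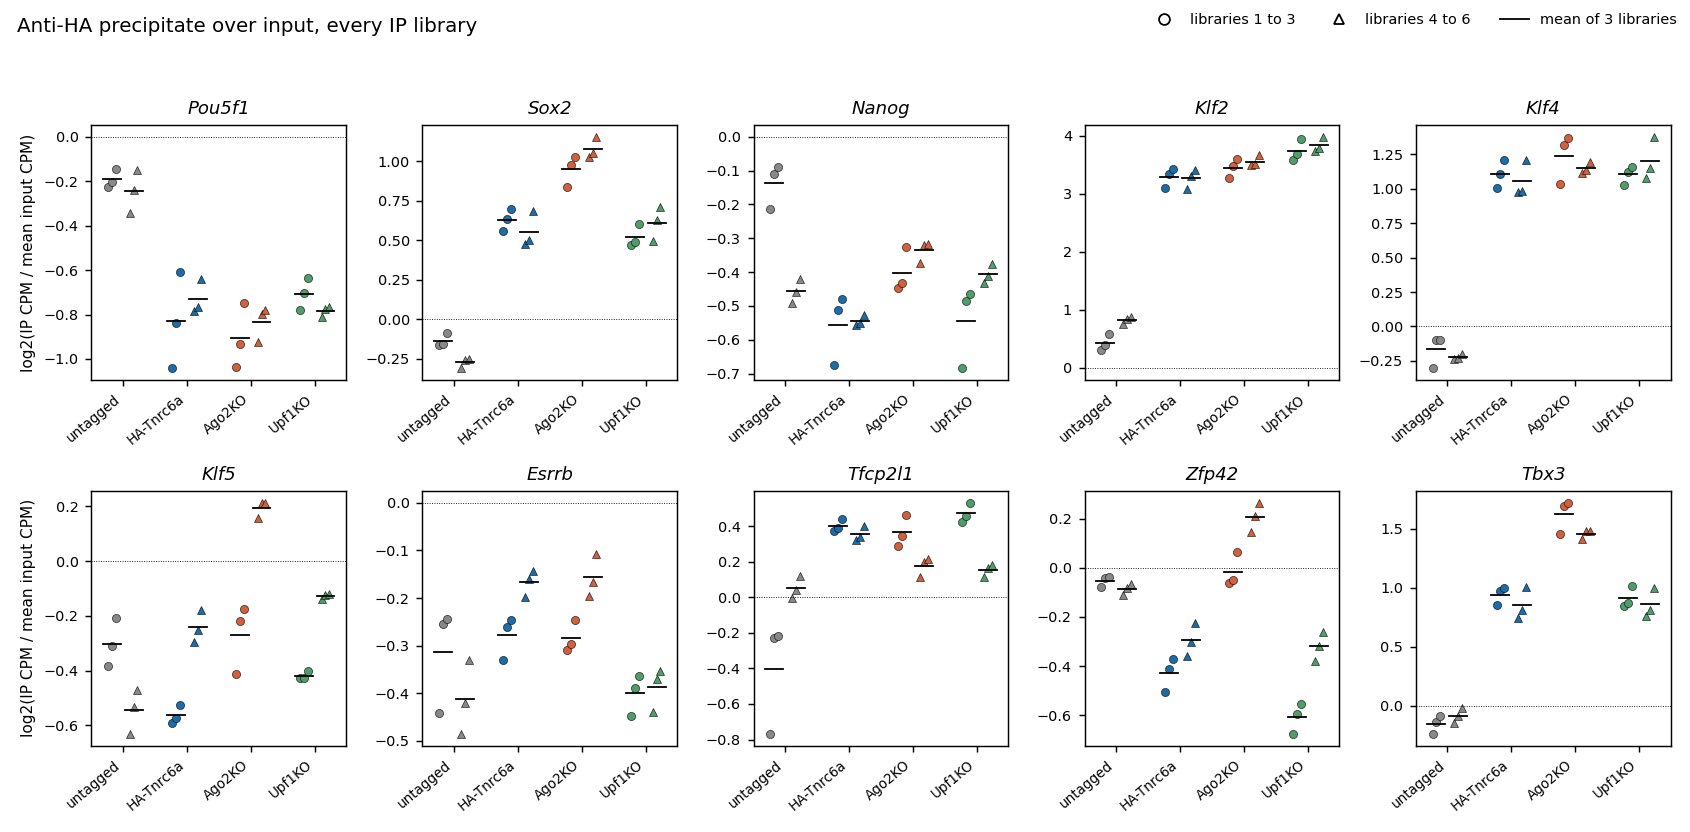
Log2 of each IP library's CPM over the mean CPM of the 3 inputs of the same genotype and library set (vertical axis), for each member and genotype (horizontal axis); circles are libraries 1 to 3, triangles libraries 4 to 6, bars the mean of 3, and the dotted line marks equal levels in IP and input. Klf2 stands above 3 in the tagged genotypes and below 1 in untagged cells, while the Pou5f1 points of the tagged genotypes lie below those of the untagged cells.

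With the tagged protein, Klf2 was the member recovered most in each genotype. Klf4, Tbx3 and Sox2 followed in this order in HA-Tnrc6a and in the cells labelled Upf1 knockout, and Tbx3, Klf4 and Sox2 in Ago2KO. The relative recovery of Pou5f1 was below that in untagged cells. Enrichment is the ratio of IP to input in a tagged genotype over the same ratio in untagged cells, tested as an interaction. IP levels are shares of a library's counts, so recovery is relative. A lower value does not show that a smaller amount of an RNA was precipitated than from untagged cells. In HA-Tnrc6a 6 members were higher and 3 lower, with 29.8% of all genes higher and 32.2% lower. Ago2KO had 8 members higher and 1 lower, with 31.5% of all genes higher and 33.2% lower. The cells labelled Upf1 knockout had 6 higher and 2 lower, with 31.8% of all genes higher and 31.8% lower. The median log2 enrichment of the members was 0.35, 0.43 and 0.39 in that order, against -0.10, -0.07 and -0.06 over all genes. Library totals as the scale moved the median over all genes to -0.25, -0.22 and -0.32 and that of the members to 0.19, 0.27 and 0.13. The 3 enrichments share the untagged libraries, so they are given side by side and not as support for each other.

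In precipitates of HA-Tnrc6a, Klf2 stood at 3485, 3283 and 2768 CPM in libraries 1 to 3 and at 2795, 2617 and 2238 CPM in libraries 4 to 6. In Ago2KO IPs it was at 5238, 4563 and 5735 CPM and then at 4077, 4030 and 4553 CPM, and in IPs of the cells labelled Upf1 knockout at 1996, 2147 and 2570 CPM and then at 1556, 1366 and 1307 CPM. Every tagged IP lay far above the untagged IPs, which reached 416 CPM. The log2 enrichment was 2.66 ± 0.09 in HA-Tnrc6a (6.34-fold; edgeR adjusted p = 6.4e-24), at the 96.4 percentile of all genes. It was 2.89 ± 0.07 in Ago2KO (edgeR adjusted p = 2.9e-28) and 3.24 ± 0.08 in the cells labelled Upf1 knockout (edgeR adjusted p = 8.1e-28). Among the tagged genotypes, the ratio of Klf2 was thus highest where both its IP level and its input level were lowest.

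Klf4 and Klf5, of the same family, stood apart from Klf2 and from each other. The log2 IP-to-input ratio of Klf4 was -0.16 ± 0.12 and -0.22 ± 0.02 in untagged libraries 1 to 3 and 4 to 6 (mean ± SD, n = 3 each) and 1.11 ± 0.10 and 1.06 ± 0.13 in HA-Tnrc6a, without overlap. Its log2 enrichment was 1.29 ± 0.07 in HA-Tnrc6a (edgeR adjusted p = 8.3e-17), 1.40 ± 0.07 in Ago2KO and 1.42 ± 0.07 in the cells labelled Upf1 knockout. The ratio of Klf5 was -0.30 ± 0.09 and -0.54 ± 0.08 in untagged libraries and -0.56 ± 0.03 and -0.24 ± 0.06 in HA-Tnrc6a, below untagged in the first set and above it in the second. Its log2 enrichment was 0.03 ± 0.06 in HA-Tnrc6a (edgeR adjusted p = 0.68), from -0.28 in libraries 1 to 3 and 0.34 in libraries 4 to 6, and this difference (edgeR adjusted p = 0.020) is shared by 0.365% of all genes. In Ago2KO the enrichment of Klf5 was 0.40 ± 0.07 (0.04 and 0.77 in the 2 sets) and in the cells labelled Upf1 knockout 0.23 ± 0.06 (-0.02 and 0.47). The latter was 0.10 without untagged IP 1 and 0.12 without untagged IP 2 (edgeR adjusted p = 0.14 and 0.11) and -0.04 with library totals as the scale.

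Sox2 and Pou5f1, which pair on DNA, were recovered differently. The log2 IP-to-input ratio of Sox2 was -0.13 ± 0.04 and -0.27 ± 0.03 in untagged libraries and 0.63 ± 0.07 and 0.55 ± 0.11 in HA-Tnrc6a, and its log2 enrichment was 0.81 ± 0.06 (edgeR adjusted p = 3.3e-13). It was 1.23 ± 0.06 in Ago2KO and 0.85 ± 0.06 in the cells labelled Upf1 knockout. The ratio of Pou5f1 was -0.19 ± 0.04 and -0.24 ± 0.10 in untagged libraries and -0.83 ± 0.22 and -0.73 ± 0.08 in HA-Tnrc6a. Its log2 enrichment was -0.55 in HA-Tnrc6a (edgeR adjusted p = 2.6e-07), -0.63 ± 0.08 in Ago2KO and -0.45 ± 0.07 in the cells labelled Upf1 knockout, so it was lower than untagged in all 3. Nanog had -0.24 in HA-Tnrc6a (edgeR adjusted p = 5.6e-04), with -0.11 and no call in libraries 4 to 6 alone (edgeR adjusted p = 0.15). In Ago2KO the enrichment of Nanog was -0.06 ± 0.06 (edgeR adjusted p = 0.38), made up of -0.26 in libraries 1 to 3 and 0.15 in libraries 4 to 6. Its ratios there lay below and then above those of untagged cells without overlap, and the sets differed (edgeR adjusted p = 0.020). Nanog had -0.10 ± 0.06 in the cells labelled Upf1 knockout (edgeR adjusted p = 0.14). This value was called lower without untagged IP 1, 2 or 3 (-0.22 to -0.19, edgeR adjusted p = 0.0010 to 0.0077) and with RLE size factors (-0.16, edgeR adjusted p = 0.022).

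Tbx3 was the second most enriched member in Ago2KO. Its log2 IP-to-input ratio was -0.15 ± 0.08 and -0.08 ± 0.06 in untagged libraries, 0.94 ± 0.08 and 0.86 ± 0.14 in HA-Tnrc6a and 1.62 ± 0.15 and 1.46 ± 0.04 in Ago2KO, with no overlap between genotypes. The log2 enrichment was 1.03 ± 0.07 in HA-Tnrc6a (edgeR adjusted p = 2.2e-15), 1.68 ± 0.06 in Ago2KO and 1.08 ± 0.06 in the cells labelled Upf1 knockout. Tfcp2l1 was enriched by 0.55 ± 0.09 in HA-Tnrc6a (edgeR adjusted p = 1.1e-06), by 0.45 ± 0.08 in Ago2KO and by 0.55 ± 0.09 in the cells labelled Upf1 knockout. In both knockouts its enrichment was larger in libraries 1 to 3 (0.75 and 0.96) than in libraries 4 to 6 (0.15 and 0.15), where the IP-to-input ratios overlapped with those of untagged cells. Differences between the sets were called for 3 members in Ago2KO and 2 in the cells labelled Upf1 knockout, and for 6.15% and 1.68% of all genes.

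Esrrb lay close to the untagged background. Zfp42 lay below it in HA-Tnrc6a and in the cells labelled Upf1 knockout, without overlap of the IP-to-input ratios in either library set. The log2 IP-to-input ratio of Esrrb was -0.31 ± 0.11 and -0.41 ± 0.08 in untagged libraries and -0.28 ± 0.04 and -0.17 ± 0.03 in HA-Tnrc6a, and its log2 enrichment of 0.15 ± 0.06 (edgeR adjusted p = 0.033) stood at -0.01 with library totals as the scale and was lost without each of 9 libraries in turn (untagged input 2, 3 or 5, HA-Tnrc6a input 1 or 4, untagged IP 1, 4 or 6, or HA-Tnrc6a IP 2; edgeR adjusted p = 0.051 to 0.083). In Ago2KO it was 0.16 ± 0.06 (edgeR adjusted p = 0.020), 0.003 with library totals, and was lost without untagged IP 1 or 3 (edgeR adjusted p = 0.18 and 0.061). For Esrrb in the cells labelled Upf1 knockout it was 0.04 ± 0.06 (edgeR adjusted p = 0.56) and -0.22 with library totals as the scale. Zfp42 had a log2 enrichment of -0.28 in HA-Tnrc6a (edgeR adjusted p = 7.7e-05) and -0.32 ± 0.06 in the cells labelled Upf1 knockout (edgeR adjusted p = 9.2e-06). In Ago2KO it was 0.18 ± 0.06 (edgeR adjusted p = 0.0045), with no call when library totals were the scale (0.03, edgeR adjusted p = 0.66).

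**Figure D4:**
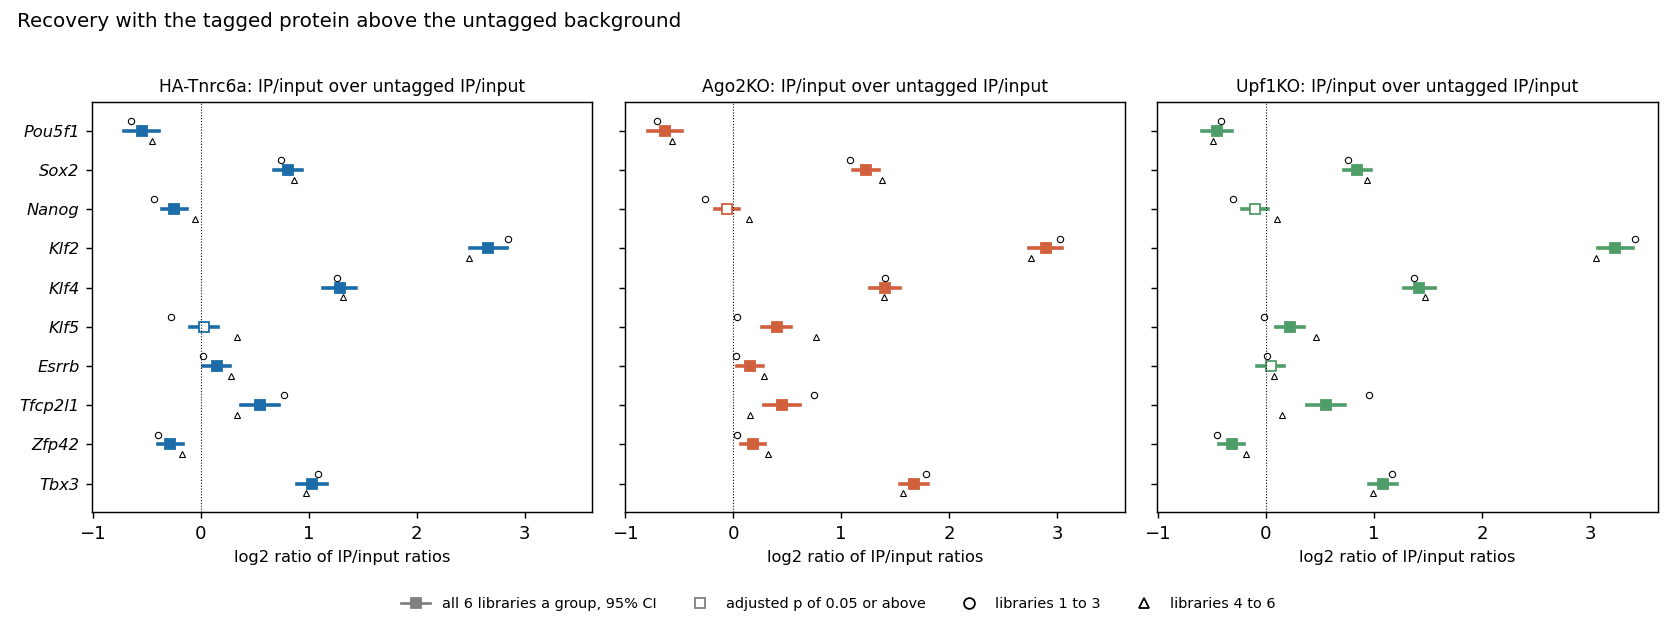
Log2 enrichment of each member over untagged cells (horizontal axis) in HA-Tnrc6a, Ago2KO and the cells labelled Upf1 knockout (panels left to right); squares with lines are all 6 libraries a group with the 95% interval (filled where the adjusted p is below 0.05), circles libraries 1 to 3 and triangles libraries 4 to 6. Klf2 stands at 2.66, 2.89 and 3.24, and Pou5f1 at -0.55, -0.63 and -0.45.

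Whether a knockout altered recovery was tested as its IP-to-input ratio over that of HA-Tnrc6a. In Ago2KO 5 members were recovered more and 0 less, with 9.09% of all genes higher and 12.3% lower, and the members' median log2 ratio was 0.20 against -0.04 over all genes. In the cells labelled Upf1 knockout 1 member was recovered more and 0 less, with 2.92% of all genes higher and 1.57% lower, and the members' median was 0.06 against 0.02 over all genes. For that knockout the split of all called genes moved with the setting: 65.1% were higher, against 52.8% with RLE size factors, 22.4% with library totals, 47.5% with no count filter, 36.5% with all 48 libraries in 1 fit, 10.5% in libraries 1 to 3 alone and 75.3% in libraries 4 to 6 alone. For the enrichment of the cells labelled Upf1 knockout, library totals moved the share higher from 50.0% to 36.4%. Both recovery comparisons share the HA-Tnrc6a libraries.

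In Ago2KO the largest gain was that of Tbx3, whose log2 recovery rose by 0.64 ± 0.07 (1.56-fold; edgeR adjusted p = 1.6e-08), 0.68 and 0.59 in the 2 library sets. Zfp42 rose by 0.46 ± 0.06 (edgeR adjusted p = 1.0e-06): its log2 IP-to-input ratio was -0.02 ± 0.07 and 0.21 ± 0.06 in Ago2KO against -0.43 ± 0.07 and -0.30 ± 0.07 in HA-Tnrc6a, without overlap. Sox2 rose by 0.42 ± 0.07 (edgeR adjusted p = 1.4e-05) and Klf5 by 0.36 ± 0.07 (edgeR adjusted p = 6.1e-05), also without overlap in either set. In libraries 1 to 3 alone Sox2 and Klf5 kept that direction at 0.30 and 0.28 but were not called (edgeR adjusted p = 0.13 and 0.14). Nanog rose by 0.18 ± 0.06 (edgeR adjusted p = 0.038), a call lost without each of 8 libraries in turn (HA-Tnrc6a input 3, 4, 5 or 6, Ago2KO input 1, 2 or 6, or Ago2KO IP 1; edgeR adjusted p = 0.051 to 0.065).

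Klf2, whose input was higher in Ago2KO, had a log2 recovery change of 0.22 ± 0.09 there (95% interval 0.04 to 0.40; edgeR adjusted p = 0.067), called without HA-Tnrc6a IP 1 or 4 or Ago2KO IP 2 or 5 (0.25 to 0.27; edgeR adjusted p = 0.016 to 0.049). Klf4 (0.11 ± 0.08), Esrrb (-0.00 ± 0.06), Pou5f1 (-0.10 ± 0.08) and Tfcp2l1 (-0.11 ± 0.06) were not called, with 95% intervals of -0.04 to 0.26, -0.12 to 0.12, -0.27 to 0.08 and -0.23 to 0.02.

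In the cells labelled Upf1 knockout the log2 recovery of Klf2 rose by 0.56 ± 0.09 (1.48-fold; edgeR adjusted p = 1.2e-04), 0.54 and 0.58 in the 2 library sets, and its IP-to-input ratios lay above those of HA-Tnrc6a in both. Its IP level itself was lower: with IPs compared without inputs the log2 fold change was -0.66, the reverse of the ratio. In libraries 1 to 3 alone the recovery change was 0.45 (edgeR adjusted p = 0.18). The other 9 members were not called, from Klf5 at 0.18 ± 0.06 (95% interval 0.06 to 0.30; edgeR adjusted p = 0.084) to Esrrb at -0.12 ± 0.06 (95% interval -0.24 to 0.01; edgeR adjusted p = 0.34).

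**Figure D5:**
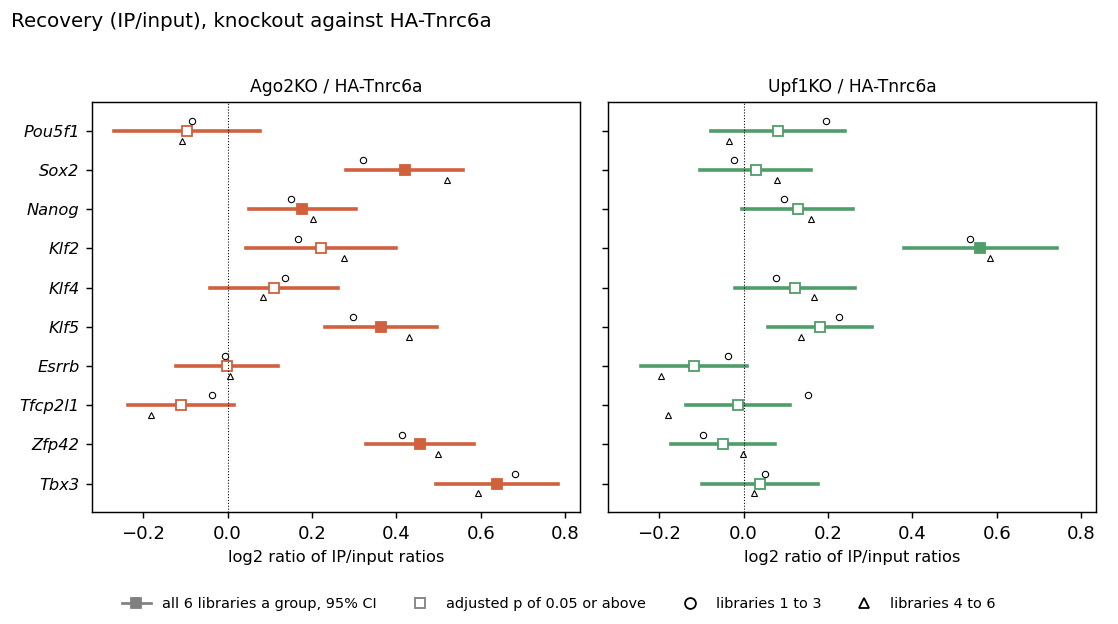
Log2 change of each member's IP-to-input ratio against HA-Tnrc6a (horizontal axis) in Ago2KO (left) and the cells labelled Upf1 knockout (right); squares with lines are all 6 libraries a group with the 95% interval (filled where the adjusted p is below 0.05), circles libraries 1 to 3 and triangles libraries 4 to 6. Tbx3, Zfp42, Sox2, Klf5 and Nanog are filled on the left, at 0.64, 0.46, 0.42, 0.36 and 0.18, and Klf2 alone on the right at 0.56.

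Between the knockouts, recovery in Ago2KO was above that in the cells labelled Upf1 knockout for 4 members and below it for 1, with 10.9% of all genes higher and 13.5% lower. The higher members were Tbx3 (log2 ratio 0.62 ± 0.07, edgeR adjusted p = 1.5e-09), Zfp42 (0.52 ± 0.06, 4.5e-09), Sox2 (0.41 ± 0.06, 2.1e-06) and Klf5 (0.20 ± 0.06, 0.017), and Klf2 was lower (-0.32 ± 0.08, 0.0019). In libraries 1 to 3 alone Klf2 (-0.27, edgeR adjusted p = 0.21) and Klf5 (0.17, edgeR adjusted p = 0.38) were not called. With IPs compared without inputs Klf2 was higher in Ago2KO, at 1.38, and Klf5 lower, at -0.13. Esrrb, at 0.14 ± 0.06 (edgeR adjusted p = 0.084), was called without each of 12 libraries in turn (Ago2KO input 1, 3, 5 or 6, Ago2KO IP 1, 2 or 3, or IP 1, 2, 3, 4 or 6 of the cells labelled Upf1 knockout; 0.16 to 0.19, edgeR adjusted p = 0.011 to 0.049). Library totals as the scale moved the share of called genes that were higher from 44.6% to 63.4%.

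Genes of the LIF pathway were among those recovered with tagged Tnrc6a. Of the 6, 5 were enriched and 1, the transcription factor gene Tfe3, was lower in HA-Tnrc6a (29.8% and 32.2% of all genes), with a median log2 enrichment of 1.57 against -0.10 over all genes, led by Socs3 (3.96 ± 0.08) and Il6st (2.42 ± 0.08). Socs3 and Il6st also led in Ago2KO (Socs3 4.63 ± 0.06) and in the cells labelled Upf1 knockout (Socs3 3.78 ± 0.07). Against HA-Tnrc6a, recovery in Ago2KO rose for Socs3 (0.66 ± 0.09) and fell for Stat3 by 0.29 ± 0.06 on the log2 scale (9.09% and 12.3% of all genes). None of the 6 was called in the cells labelled Upf1 knockout, where 2.92% of all genes were higher and 1.57% lower.

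Of the 18 other pluripotency-associated genes, 6 were enriched and 9 lower in HA-Tnrc6a (29.8% and 32.2% of all genes), with a median log2 enrichment of -0.15, led by the growth factor gene Fgf4 (3.67 ± 0.09) and the RNA-binding protein gene Lin28a (1.77 ± 0.06). In Ago2KO recovery 5 rose and 3 fell against HA-Tnrc6a (9.09% and 12.3% of all genes), with Gbx2 (0.58 ± 0.07) among those that rose. In the cells labelled Upf1 knockout 2 rose (2.92% of all genes), among them Lin28a (0.27 ± 0.07). Of the 11 formative and primed genes 5 were enriched and 3 lower in HA-Tnrc6a (29.8% and 32.2% of all genes), with a median of 0.07, led by Zic5 (1.60 ± 0.09) and Pou3f1 (1.18 ± 0.15). In Ago2KO recovery 3 of them rose (9.09% of all genes), led by Pou3f1 (0.48 ± 0.18) and Zic5 (0.24 ± 0.07), and in the cells labelled Upf1 knockout 1 rose (2.92% of all genes), Zic2 (0.46 ± 0.10). Over all inputs Pou3f1 ran from 2.50 to 8.02 CPM, so its ratios rest on a low input level.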

How the data were processed

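The authors deposited raw counts per gene for the 48 libraries and a gene length column in other units, namely bases, per the file headers. Reads were stranded total RNA, per the labels' protocols, and bcl2fastq 2.20, STAR 2.7.3a and the builds GRCm38 and mm10 are named in the submitters' processing notes. The counting program, its annotation and its strand setting are not given in the sources used here. A further 48 columns, headed as RPKM, were not used. Headings number the libraries of a group 1 to 6 and titles 1 to 3 in each of 2 experiments, so 1 to 3 and 4 to 6 were taken as the first and second experiment; this is inferred from the numbering. The table paired 16427 genes with a symbol, and 3725 more were named from the reference.

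Counts were tested with edgeR 4.0.16 in R 4.3.3 (quasi-likelihood test, TMM, filterByExpr with a minimum count of 10, 1 coefficient per group and library set, contrasts averaged over both sets with equal weight, Benjamini-Hochberg adjusted p below 0.05 over all genes tested), with only the groups of a comparison in its fit. Enrichment and recovery were interactions of fraction and genotype. Standard errors, with 95% intervals, are those of the log2 fold change from the same fit. The procedure was also run on simulated counts with few changed genes and no difference between library sets. That run does not give its error rate on these data. Alternatives were RLE size factors, library totals, no count filter, a replicate block, all 48 libraries in 1 fit, each library set alone, IPs without inputs, DESeq2 1.42.0, and leaving out each library. Replicates of a group differed beyond counting noise (chi-square over its degrees of freedom 1.96 to 36.2 in 48 pairs of libraries). In HA-Tnrc6a inputs library 3 gave 34.3 and 28.9 against libraries 1 and 2, which gave 2.66 against each other. In IPs of the cells labelled Upf1 knockout library 4 gave 26.3 and 36.2 against libraries 5 and 6, which gave 4.69. Replicates are dishes grown in triplicate, so p-values measure the spread between dishes of a line, not between independently made lines.

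The text names the 10 members in every comparison and, from each further list, the counts and the 2 passing genes with the largest change, except 1 gene that is not reported here. The gene most like each member is the one with the highest Pearson's r among genes with a mean log2 CPM of at least 3. The members and lists were chosen with earlier results of these data known. Promoter windows of 250 bases and gene positions are RefSeq's on GRCm38.p6.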

Additional observations from a re-analysis of the deposited data

Results flagged for a closer look

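In 4 of 80 groups of 6 libraries, 1 library lay far from the other 5 in CPM by Dixon's test. Each group pools both library sets, and levels of several members differed between the sets. The usual rate of about 1 in 20 groups flagged by chance therefore need not hold here. Pou5f1 stood at 1888 CPM in untagged input library 1, above the others, and at 1362 CPM in Ago2KO input library 3, below the others. Nanog stood at 379.8 CPM in IP library 3 of the cells labelled Upf1 knockout, and Klf4 at 727.8 CPM in Ago2KO IP library 2, both below the others of their group.

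The same contrast differed between the library sets for 21 values, given here as log2 values of libraries 4 to 6 minus libraries 1 to 3, each with an edgeR adjusted p below 0.05 for the difference. In the cells labelled Upf1 knockout against HA-Tnrc6a inputs these were Nanog at -0.24, Klf2 at -0.43, Klf5 at 0.39, Esrrb at 0.23, Tfcp2l1 at 0.40 and Tbx3 at 0.29. In Ago2KO inputs against those of the cells labelled Upf1 knockout, the same 6 members differed, Nanog by 0.23, Klf2 by 0.32, Klf5 by -0.31, Esrrb by -0.14, Tfcp2l1 by -0.32 and Tbx3 by -0.35, and both comparisons use the same inputs of the latter. In untagged against HA-Tnrc6a inputs Klf5 differed by 0.29.

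In enrichment over untagged cells, Klf5 differed by 0.61 in HA-Tnrc6a, by 0.73 in Ago2KO and by 0.48 in the cells labelled Upf1 knockout. Tfcp2l1 differed by -0.60 in Ago2KO and by -0.81 in the cells labelled Upf1 knockout, and Nanog by 0.41 in Ago2KO. In untagged IPs against untagged inputs, which enter all 3 enrichments, Nanog differed by -0.33 and Klf2 by 0.39.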

How the results depend on the processing

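Of the values of single members under alternatives other than leaving out a library, 805 kept their direction and their side of the threshold, 37 lost the call, 38 gained it and 60 changed sign. When single libraries were left out, 1944 kept both, 26 lost the call, 23 gained it and 47 changed sign. Values that changed sign follow, with Upf1KO for the cells labelled Upf1 knockout; the cause was not tested. With library totals as the scale, the log2 values of opposite sign were in HA-Tnrc6a enrichment Esrrb -0.010 and Klf5 -0.13, in Upf1KO enrichment Esrrb -0.22 and Klf5 -0.036, in Ago2KO recovery Esrrb 0.013, in Upf1KO recovery Pou5f1 -0.011, Sox2 -0.060 and Tbx3 -0.050, in Ago2KO over Upf1KO recovery Tfcp2l1 0.0072, in Ago2KO over Upf1KO inputs Esrrb -0.021 and Tfcp2l1 -0.037. With RLE size factors, the log2 values of opposite sign were in Upf1KO enrichment Esrrb -0.013, in Ago2KO over Upf1KO recovery Klf4 -0.0057, in Upf1KO inputs Tbx3 -0.0065. With no count filter, the log2 values of opposite sign were in Ago2KO recovery Esrrb 0.0028, in Upf1KO recovery Sox2 -9.6e-05. With all 48 libraries in 1 fit, the log2 values of opposite sign were in Upf1KO enrichment Esrrb -0.033, in Ago2KO recovery Esrrb 0.0029, in Upf1KO recovery Sox2 -0.024 and Tbx3 -0.014. In libraries 1 to 3 alone, the log2 values of opposite sign were in HA-Tnrc6a enrichment Klf5 -0.19, in Upf1KO enrichment Esrrb -0.11 and Klf5 -0.14, in Upf1KO recovery Klf4 -0.012, Sox2 -0.11, Tbx3 -0.037 and Tfcp2l1 0.064, in Upf1KO inputs Klf5 -0.068 and Tbx3 -0.14, in untagged inputs Klf5 -0.11 and Tbx3 0.0070. In libraries 4 to 6 alone, the log2 values of opposite sign were in Ago2KO enrichment Nanog 0.089, in Upf1KO enrichment Esrrb -0.018 and Nanog 0.0093, in Ago2KO recovery Esrrb 0.018, in Upf1KO recovery Pou5f1 -0.0014 and Zfp42 0.032, in Ago2KO over Upf1KO recovery Klf4 -0.096, in untagged inputs Pou5f1 -0.052, in Ago2KO over Upf1KO inputs Esrrb -0.032, Tbx3 -0.076 and Tfcp2l1 -0.14, in untagged IPs Tfcp2l1 0.072. With IPs compared without inputs, the log2 values of opposite sign were in Ago2KO enrichment Nanog 0.43, in Ago2KO recovery Esrrb 0.23, Klf4 -0.094 and Tfcp2l1 0.21, in Upf1KO recovery Esrrb 0.0051, Klf2 -0.66, Nanog -0.11, Pou5f1 -0.32, Sox2 -0.34 and Tfcp2l1 0.22, in Ago2KO over Upf1KO recovery Klf2 1.38, Klf4 -0.33, Klf5 -0.13 and Pou5f1 0.21. With DESeq2, the log2 values of opposite sign were in Upf1KO enrichment Esrrb -0.013, in Ago2KO over Upf1KO recovery Klf4 -0.0056, in Upf1KO inputs Tbx3 -0.0065.

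Counts of called members moved by over 1.5 times as follows. In libraries 1 to 3 alone, with fewer libraries in the fit, 2 members were called in Ago2KO recovery in place of 5, 0 in Upf1KO recovery in place of 1, 3 in Ago2KO over Upf1KO recovery in place of 5, 2 in untagged inputs in place of 5 and 3 in untagged IPs in place of 8. Genes called there were 1623 in Ago2KO recovery, 162 in Upf1KO recovery, 2667 in Ago2KO over Upf1KO recovery, 3382 in Ago2KO inputs, 652 in untagged inputs and 1972 in untagged IPs, against 4267, 896, 4878, 6065, 2990 and 6892. In libraries 4 to 6 alone, 384 genes were called in Upf1KO recovery. With IPs compared without inputs, 8 members and 7482 genes were called in Ago2KO, 7 members and 8805 genes in Upf1KO, and 8 members and 10794 genes between the knockouts. DESeq2 called 3 members in Upf1KO recovery. In 1 fit of all 48 libraries, 3902 genes were called in Ago2KO inputs and 1937 in untagged inputs. Members that differed between the library sets numbered 3 in Upf1KO inputs, 1 in Ago2KO over Upf1KO inputs and 0 in untagged inputs with that fit, in place of 6, 6 and 1. DESeq2 gave 2 for HA-Tnrc6a enrichment, 4 for Upf1KO enrichment and 1 for Upf1KO recovery in place of 1, 2 and 0, library totals gave 0 for HA-Tnrc6a enrichment, and IPs without inputs gave 6 for Ago2KO enrichment in place of 3.

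With the library number as a replicate block, 10 members were called in untagged IPs in place of 8 (9 lower and 1 higher), and 4 of them differed between the library sets in place of 2. The block changed no other count of members called in the 11 comparisons. Libraries of 1 number in any 2 groups had deviations that correlated at a mean of 0.100 (168 pairs, -0.369 to 0.770), those in input and IP of 1 genotype at 0.153 (24 pairs, -0.102 to 0.589), and those of other numbers at -0.0492, so the numbers were not taken to pair libraries.

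Leaving out 1 library at a time moved the members that differed between sets to 0 to 1 in HA-Tnrc6a enrichment, 1 to 3 in Ago2KO and in Upf1KO enrichment, 0 to 1 in Ago2KO inputs and 0 to 2 in untagged IPs, and the genes called in Upf1KO recovery to 591 to 957. Signs changed for Pou5f1 in Ago2KO inputs (-0.038 to 0.029), Tbx3 in Upf1KO inputs (-0.0046 to 0.019) and in untagged inputs (-0.033 to 5.7e-04), Esrrb in Upf1KO enrichment (-0.090 to 0.083) and Ago2KO recovery (-0.013 to 0.021), Klf4 in Ago2KO over Upf1KO recovery (-0.012 to 0.093), and in Upf1KO recovery Pou5f1 (-0.016 to 0.11), Sox2 (-0.048 to 0.046) and Tbx3 (-0.050 to 0.052). At 1790 counts or more per member and library, depth did not keep any member from being tested.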
